A study of Mus musculus with 6 samples.

Results

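In mouse bone marrow-derived macrophages that had met CD47-coated beads, 10 genes of the complement system were followed. They comprise 6 genes of the classical pathway (C1qa, C1qc, C1ra, C1s1, C2 and C4b), 2 of the alternative pathway (C3 and Cfb) and 2 regulators (Serping1 and Cd55), out of the 714 genes in the table used here. All 10 were found in that table by symbol. Every gene in the table has an unadjusted p under 0.05 (the largest is 0.0499) and an absolute log2 fold change of at least 1 between genotypes, so it was selected on these values, and the 10 genes were in turn chosen from it by name. That they differ between genotypes was therefore fixed by the choice, and the differences below are descriptions.

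The libraries came from marrow of the C57BL/6 strain, flushed from leg bones and grown for 6 days in GM-CSF at 10 ng/ml, a growth factor that turns marrow cells into macrophages and also supports dendritic cells and granulocytes. There were 3 wild-type libraries and 3 Senp8+/- libraries (written SENP8+/- as a genotype and KO in the titles), the latter heterozygous for the protease that detaches the ubiquitin-like protein NEDD8. Every library was exposed to streptavidin beads carrying biotinylated CD47, the "don't eat me" ligand of the macrophage receptor SIRPα, and its poly(A) RNA was taken after 24 h. No cells without beads were analysed here, and the sources used here give neither the nature of the altered Senp8 allele nor whether each library stands for a mouse of its own. P-values then rest on the spread of the libraries alone, and that spread may be technical. Senp8 is not among the listed genes, so the genotype could not be checked on its own transcript. Of 13 macrophage markers only C1qa and C1qc are listed, and the identity of the cells was not checked further for that reason. In bulk RNA, fewer cells of a type and less RNA per cell cannot be told apart.

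Complement is a cascade of blood and tissue proteins that tags particles for engulfment and can puncture membranes. In the classical pathway the C1q molecule, built of A, B and C chains, recognises antibodies, dying cells or synaptic debris and activates the proteases C1r and C1s, which cut C4 and C2 to form a C3 convertase. In the alternative pathway C3 and factor B form a convertase of their own that amplifies the reaction. C1 inhibitor, the product of Serping1, blocks C1r and C1s, and CD55 speeds the decay of both convertases on the cell's own membrane. Liver makes most of the circulating proteins, but macrophages are a main source of C1q and also make C3, C4, C2 and factor B, whose genes respond to interferon-gamma in many cell types.

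All 10 genes had lower means in Senp8+/- than in wild-type macrophages, from 2.06-fold for C1qc to 6.84-fold for Cfb. The median log2 fold change was -2.08, beside -1.48 over the 714 listed genes, of which 569 were lower and 145 higher. These medians are not alike, since that of the list covers both directions and the members are all lower. With the libraries rescaled to equal medians over the listed genes, which shifts every log2 fold change upwards by about 1.01, the means of all 10 stayed lower in Senp8+/-, with log2 fold changes of -0.05 for C1qa and -0.04 for C1qc. The other 8 then ran from -0.68 for Cd55 through -0.85 for C1ra and -1.01 for Serping1 to -1.74 for Cfb, and limma called C3 alone (adjusted p = 0.0234), with Cfb at an adjusted p of 0.0687. Of these genes all but C1qa and C1qc, 8 in number, had an adjusted p under 0.05 in the authors' deposited table, from 6.44e-14 for C3 to 0.0311 for C2, and are referred to as called. On the log2(value + 1) scale, limma gave differences from -0.96 (SE 0.31) for C1qc to -2.76 (SE 0.38) for Cfb, with the smallest SE for C3 (0.29) and the widest for C2 (0.58). By limma 5 of the 8 kept an adjusted p under 0.05, while C2 (adjusted p = 0.0571), Serping1 (0.0635) and Cd55 (0.0685) did not. These limma values may be too high, for the reason given with the processing. Listed genes that were called and lower made up 33.9% of the listed genes and 1.65% of the 14694 genes in the authors' correction. The authors' adjusted p-values imply about 372 genes under 0.05, while 295 listed genes were under it. Called genes outside the list are thus missing from the 1.65%. The 3 Senp8+/- values lay below the 3 wild-type values for the same 8 genes, and separation in either direction held for 89.4% of the listed genes. Since the list was selected on this contrast, nothing is read from these shares.

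**Figure D1:**
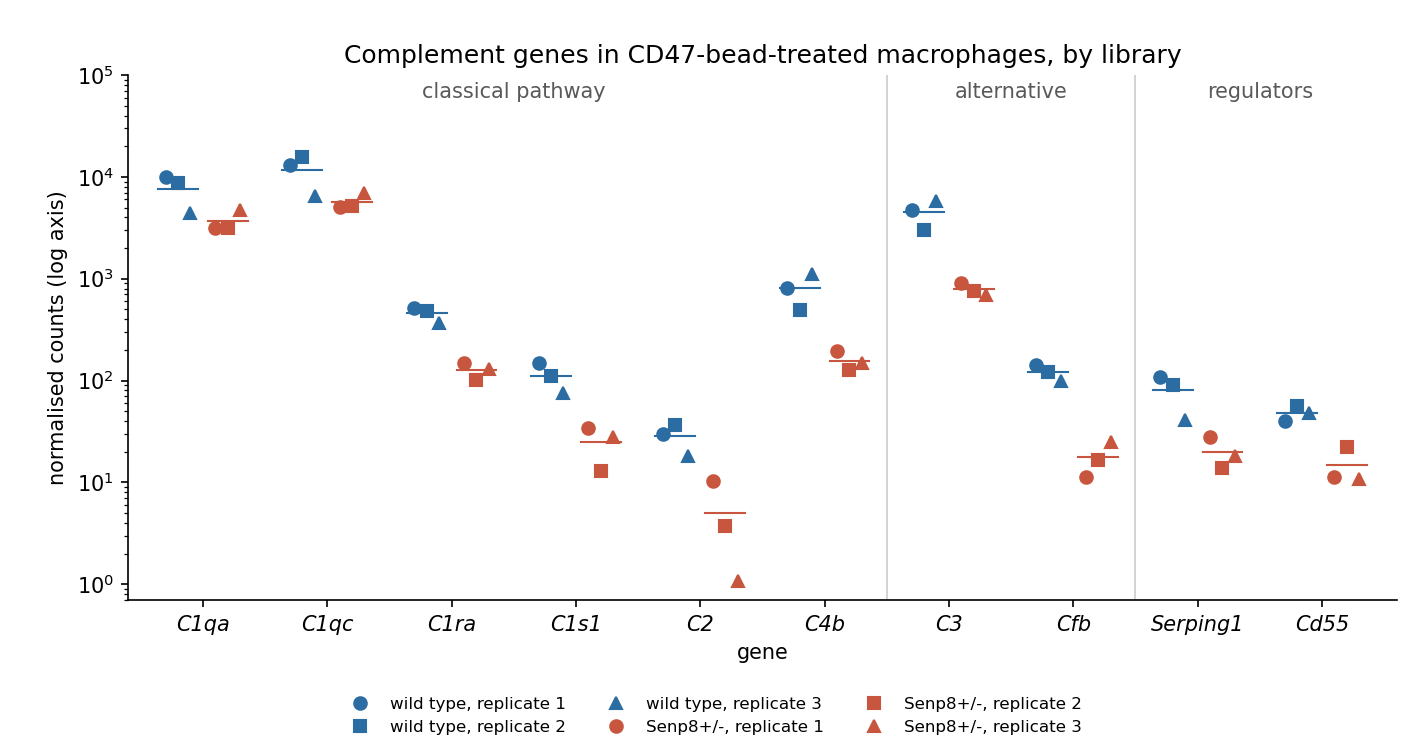
Normalised counts (log axis) of the 10 complement genes in each library, wild type in blue and Senp8+/- in red, with a symbol per replicate and a bar at the mean of the 3 libraries. The 2 colours separate for 8 genes and overlap for C1qa and C1qc, where wild-type replicate 3 lies below Senp8+/- replicate 3.

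As a description, the sequence before the start of 2 members is shown, the abundant C3 and the protease gene C1s1. RefSeq promoter windows (GRCm38.p6, 250 bases before to 50 after the start) matched 5 of the 10 genes, namely C1qc, C1ra, C1s1, C3 and Cd55. C1qa, C2, C4b, Cfb and Serping1 were not matched. The 250 bases before the start, 5′ to 3′ on the strand of the gene, are given for C3 (chr17:57228137-57228386, minus strand) and C1s1 (chr6:124542360-124542609, minus strand). Neither holds any motif searched, so no capitals appear.
C3: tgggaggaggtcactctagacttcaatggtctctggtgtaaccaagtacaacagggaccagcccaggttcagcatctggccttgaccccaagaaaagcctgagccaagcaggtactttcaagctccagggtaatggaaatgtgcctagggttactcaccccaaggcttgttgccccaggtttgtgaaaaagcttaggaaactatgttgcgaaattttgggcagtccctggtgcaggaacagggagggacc
C1s1: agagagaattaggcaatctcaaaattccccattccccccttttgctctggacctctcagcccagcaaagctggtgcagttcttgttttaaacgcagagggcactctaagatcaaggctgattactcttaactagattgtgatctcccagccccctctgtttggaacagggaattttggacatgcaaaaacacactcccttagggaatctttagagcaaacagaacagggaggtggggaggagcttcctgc

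The windows were searched on both strands for GAAANNGAA, the core of sites for interferon regulatory factors, TTCNNNGAA, the core of STAT sites, GAGGAA, the core of sites for the myeloid factor PU.1, and the NF-kB consensus. These occur in 8.56%, 8.30%, 28.3% and 4.51% of all 32851 windows. None of the 5 genes had the interferon regulatory factor core in its window. C1ra held a STAT core next to a PU.1 core just after the RefSeq start, at bases 33 to 50 (chr6:124512653-124512670, plus strand), shown with the matches in capitals.
C1ra: TTCCCTGAAacaTTCCTC

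C1qc held a PU.1 core starting 193 bases before the start and an NF-kB match starting 41 bases before it. The GENCODE M21 start of C1qc differs from that of RefSeq by 151 bases and that of C1ra by 216 bases, so the windows depend on the start chosen. C1s1, C3 and Cd55 had no match to these 4 motifs. A further RefSeq window of C1s1, whose start lies 38 bases from the GENCODE M21 start, had none either. In C3 the letters TATAAA, looked for on the gene strand after the sequence was seen, lay 15 to 20 bases after the start, and 8.32% of all windows hold them. A match is a string of letters and no measure of binding, and other elements may lie outside the windows.

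The recognition subunits of C1 were the most abundant members per length and differed least. C1qa, the A chain (ENSMUSG00000036887, chromosome 4, 136895917 to 136898803), had 9879.8, 8733 and 4423 normalised counts in wild-type replicates 1, 2 and 3 and 3119, 3146 and 4698 in Senp8+/- replicates 1, 2 and 3. Normalised counts are reads divided by 1 size factor per library. Wild-type replicate 3 was thus lower than Senp8+/- replicate 3, and the genotypes overlapped. The means were 7678 ± 2877 in wild type and 3654 ± 904 in Senp8+/- (SD, n = 3 in each), a 2.10-fold difference. It was 2.55-fold with wild-type replicate 3 left out and 1.80-fold with wild-type replicate 1 left out.

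C1qc, the C chain, lies 2851 bases from C1qa on the same strand (136889804 to 136893065). It had 13189.5, 15609.6 and 6499 normalised counts in the wild-type libraries and 5049.9, 5163 and 6907 in the Senp8+/- libraries. Here too wild-type replicate 3 fell inside the Senp8+/- range. The means of 11766 ± 4719 and 5707 ± 1041 differed 2.06-fold, or 2.52-fold without wild-type replicate 3 and 1.73-fold without wild-type replicate 2. The authors' deposited table gives C1qa an adjusted p of 0.0834 and C1qc one of 0.0982. Their absolute log2 fold changes in that table, 1.07 and 1.04, lay just inside the limit of the list, and no gene outside it was analysed here. C1qb, the gene of the B chain, is not among the listed genes.

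The proteases of the C1 complex differed more. C1ra, a gene for C1r (ENSMUSG00000055172, chromosome 6, 124512405 to 124523443), had 515, 485 and 366 normalised counts in the wild-type libraries and 148, 100.5 and 129.6 in the Senp8+/- libraries. The lowest wild-type library stood 2.47-fold above the highest Senp8+/- library. The means of 455 ± 78.7 and 126 ± 24.1 differed 3.61-fold, within 3.28- to 3.96-fold when each library was left out in turn.

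C1s1, a gene for C1s, lies 6901 bases from C1ra on the opposite strand (ENSMUSG00000038521, 124530345 to 124542359). It had 149.5, 111 and 75.1 normalised counts in wild type and 33.97, 13.02 and 27.9 in Senp8+/-. The groups did not overlap, although wild-type replicate 3 was again the lowest of its group. The means of 112 ± 37.2 and 24.9 ± 10.8 differed 4.48-fold (3.62- to 5.47-fold with a library left out).

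C4 and C2, the substrates of C1s, were lower as well. C4b (ENSMUSG00000073418, chromosome 17, 34728380 to 34743882) had 803, 489 and 1113 normalised counts in wild type and 195, 127 and 149.98 in Senp8+/-. In contrast to the C1 genes, wild-type replicate 3 was the highest and replicate 2 the lowest of the wild-type libraries. The means of 802 ± 312 and 157 ± 34.6 differed 5.11-fold (4.11- to 6.10-fold with a library left out).

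C2 (ENSMUSG00000024371, chromosome 17, 34862604 to 34898265) had the lowest mean per full gene length, with a wild-type range that overlapped that of Cd55. It had 29.7, 36.9 and 18.3 normalised counts in wild type, from 30, 35 and 21 reads, and 10.3, 3.72 and 1.07 in Senp8+/-, from 10, 4 and 1 reads. The groups did not overlap, but the Senp8+/- values spanned 9.61-fold among themselves. The means of 28.3 ± 9.38 and 5.03 ± 4.75 differed 5.63-fold, a value that rose to 11.8-fold without Senp8+/- replicate 1. With so few reads the size of this difference is poorly determined.

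The alternative pathway genes showed the widest separation between genotypes. C3, which every complement pathway converges on (ENSMUSG00000024164, chromosome 17, 57203970 to 57228136), had 4738, 2999 and 5847 normalised counts in wild type and 905, 757 and 696 in Senp8+/-. The Senp8+/- libraries lay close together, with a coefficient of variation of 13.6%, and all under the wild-type ones. The means of 4528 ± 1435 and 786 ± 107 differed 5.76-fold (4.92- to 6.73-fold with a library left out). 

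Cfb, the gene of factor B (ENSMUSG00000090231, chromosome 17, 34856374 to 34862518), had 141, 121 and 98.7 normalised counts in wild type and 11.3, 16.7 and 24.6 in Senp8+/-. The lowest wild-type library was 4.01-fold above the highest Senp8+/- library, the widest gap among the 10. The means of 120.3 ± 20.98 and 17.6 ± 6.70 differed 6.84-fold (5.81- to 8.57-fold with a library left out).

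Both regulators were lower too, so restraining and activating genes differed in the same direction. Serping1 (ENSMUSG00000023224, chromosome 2, 84765387 to 84775444) had 108, 90.8 and 41.1 normalised counts in wild type and 27.8, 13.95 and 18.2 in Senp8+/-. Its wild-type replicate 3 lay 1.48-fold above the highest Senp8+/- library, the narrowest gap among the 8 genes without overlap. The means of 79.9 ± 34.7 and 19.99 ± 7.09 differed 3.999-fold (3.30- to 4.97-fold with a library left out).

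Cd55 (ENSMUSG00000026399, chromosome 1, 130439027 to 130462744) had 39.6, 56.0 and 48.1 normalised counts in wild type and 11.3, 22.3 and 10.7 in Senp8+/-. The groups did not overlap. Its means of 47.9 ± 8.17 and 14.8 ± 6.54 differed 3.24-fold (2.85- to 4.35-fold with a library left out).

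**Figure D2:**
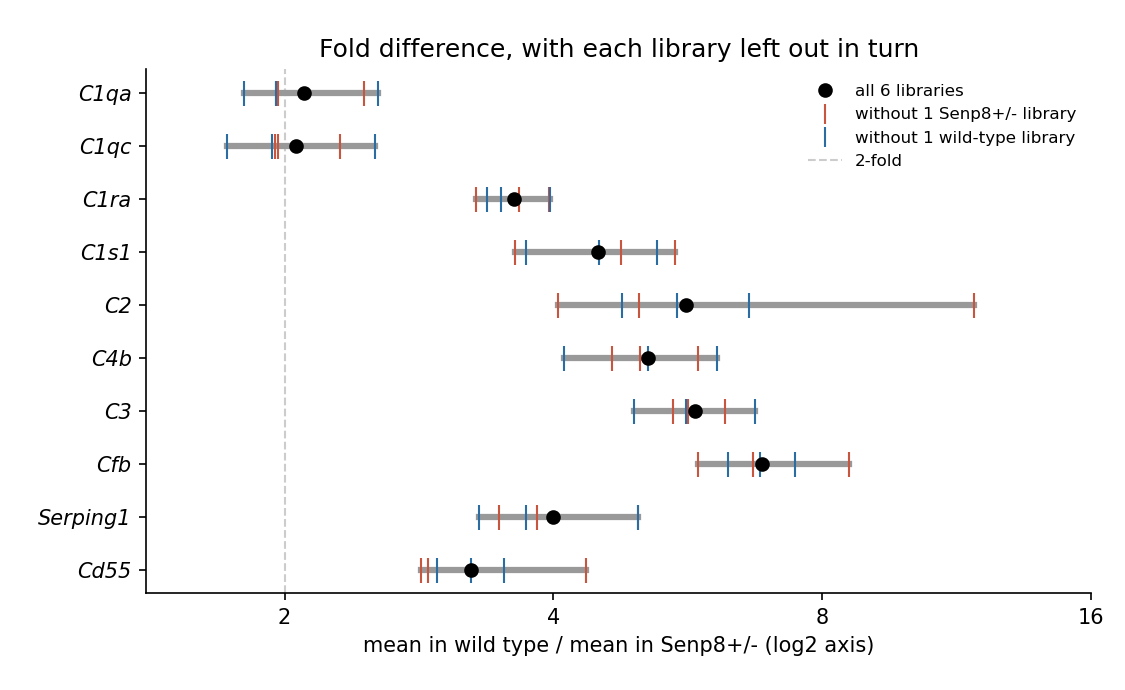
Ratio of the wild-type mean to the Senp8+/- mean (log2 axis) for each gene, as a black dot for all 6 libraries, with a tick for each value obtained without 1 Senp8+/- library (red) or 1 wild-type library (blue) and a grey bar over their range. Every tick lies above 1, those of C1qa and C1qc on both sides of 2, and C2 reaches 11.8 without Senp8+/- replicate 1.

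Levels were compared between genes only after division by gene length, as normalised counts per kb of the length in the deposited table. In wild type, C1qa (7383 ± 2767 per kb) and C1qc (6093 ± 2444) led, with ranges that overlapped. C3 came next at 880.4 ± 279 per kb, apart from its neighbours on both sides. C1ra (153 ± 26.4) and C4b (141 ± 54.8) overlapped, as did Cfb (42.6 ± 7.43), C1s1 (35.7 ± 11.9) and Serping1 (34.4 ± 14.9), and then Cd55 (9.86 ± 1.68) and C2 (7.32 ± 2.42). The components of one C1 complex thus differed widely in transcript level. In Senp8+/- the first 5 and the last 2 places were the same, while the 3 genes between them came in the reverse order, Serping1 (8.596 ± 3.05 per kb) before C1s1 (7.97 ± 3.44) and Cfb (6.22 ± 2.37), again with overlapping ranges.

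The counts of several members are uncertain because other genes share their sequence, and the sources used here do not state how such reads were counted. In GENCODE M21, whose positions match the deposited ones for all 10 genes, 79.5% of the exon bases of Cfb and 42.8% of those of C2 also belong to exons of Gm20547, a gene model on the same strand that runs across both. The start of Cfb lies 85 bases from the end of C2. Only 579 exon bases of Cfb belong to Cfb alone. If reads shared by 2 genes were discarded, the level of Cfb per kb of its own bases would be 208 ± 36.2 in wild type. C1ra stood at 153 per kb over its full length, without allowance for sequence shared with C1rb. The order of C1ra and Cfb therefore cannot be told. Per kb of own bases C2 would stand at 13.8 ± 4.56 and Cd55 at 10.1 ± 1.72 in wild type, the reverse of their order by full length. Whether shared reads were discarded was not tested. C1s1 shares 18.4% of its exon bases with Gm16567 on the opposite strand. Of all 100-base windows in the longest coding transcript, 34.5% of those of C1ra also occur in its copy C1rb, 16.5% of those of C4b in C4a, 7.90% of those of C1s1 in C1s2 and 6.86% of those of Cd55 in Cd55b. C1qa, C1qc, C3 and Serping1 had 0 such windows. None of Gm20547, Gm16567, C1rb, C4a, C1s2 and Cd55b is among the listed genes.

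Ratios between members within a library do not depend on the scaling of the libraries. The ratio of C1qa to C1qc was 0.749, 0.559 and 0.680 in wild-type replicates 1 to 3 and 0.618, 0.609 and 0.680 in the Senp8+/- libraries. The 2 chains therefore kept nearly the same proportion in all 6 libraries, with a 1.34-fold range, while over the wild-type libraries alone C1qa spanned 2.23-fold and C1qc 2.40-fold. The ratio of C3 to C4b was 5.90, 6.14 and 5.25 in wild type and 4.65, 5.99 and 4.64 in Senp8+/-, a 1.32-fold range. These 2 genes lie far apart on chromosome 17 and encode related thioester proteins.

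The other pairs were looser. The ratio of C1ra to C1s1 was 3.44, 4.37 and 4.87 in wild type and 4.36, 7.71 and 4.65 in Senp8+/-. The ratio of C2 to Cfb lay between 0.186 and 0.304 in wild type and between 0.0435 and 0.909 in Senp8+/-, where C2 had at most 10 reads. For C3 to C1qa, a pair looked at after the values were seen, the ratio was 0.480, 0.343 and 1.32 in wild type and 0.290, 0.241 and 0.148 in Senp8+/-. These 2 groups did not overlap, but wild-type replicate 3 stood far above the rest.

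**Figure D3:**
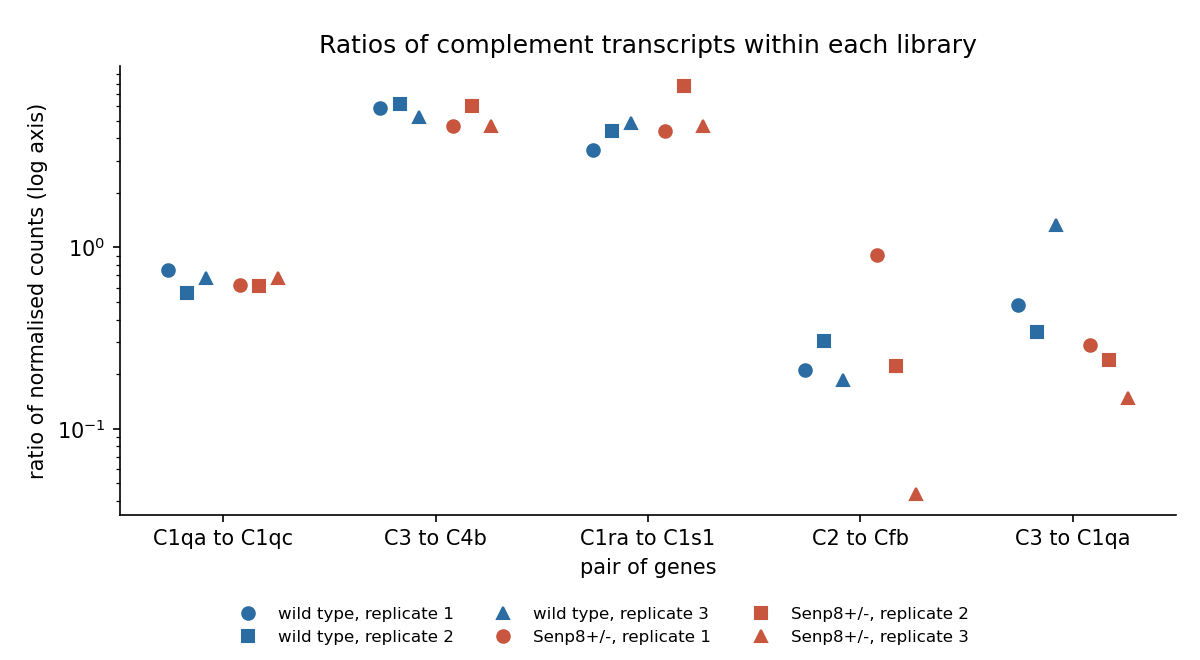
Ratio of normalised counts (log axis) for 5 pairs of complement genes, with 1 point per library, wild type in blue and Senp8+/- in red. The ratios of C1qa to C1qc and of C3 to C4b stay within 1.34-fold over the 6 libraries, whereas that of C3 to C1qa runs from 0.148 to 1.32.

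Among the wild-type libraries all members but Cd55 showed 1 of 2 patterns. In 7 of the 10 (C1qa, C1qc, C1ra, C1s1, C2, Cfb and Serping1) replicate 3 was the lowest, as it was in 43.4% of the listed genes. On the log2 scale its difference from the group mean was -0.96 for Serping1, -0.86 for C1qc and -0.28 for Cfb. In C3 and C4b replicate 3 was the highest, at 0.37 and 0.47 from the mean on that scale, and replicate 2 the lowest, at -0.59 and -0.71. Replicate 3 was the highest in 35.2% of the listed genes. Cd55 followed neither pattern. In Senp8+/- the coefficient of variation ran from 13.6% in C3 to 94.4% in C2, with a median of 30.1%, beside 29.6% over the listed genes, and in wild type from 17.1% in Cd55 to 43.5% in Serping1, with a median of 33.2% beside 34.4%.

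**Figure D4:**
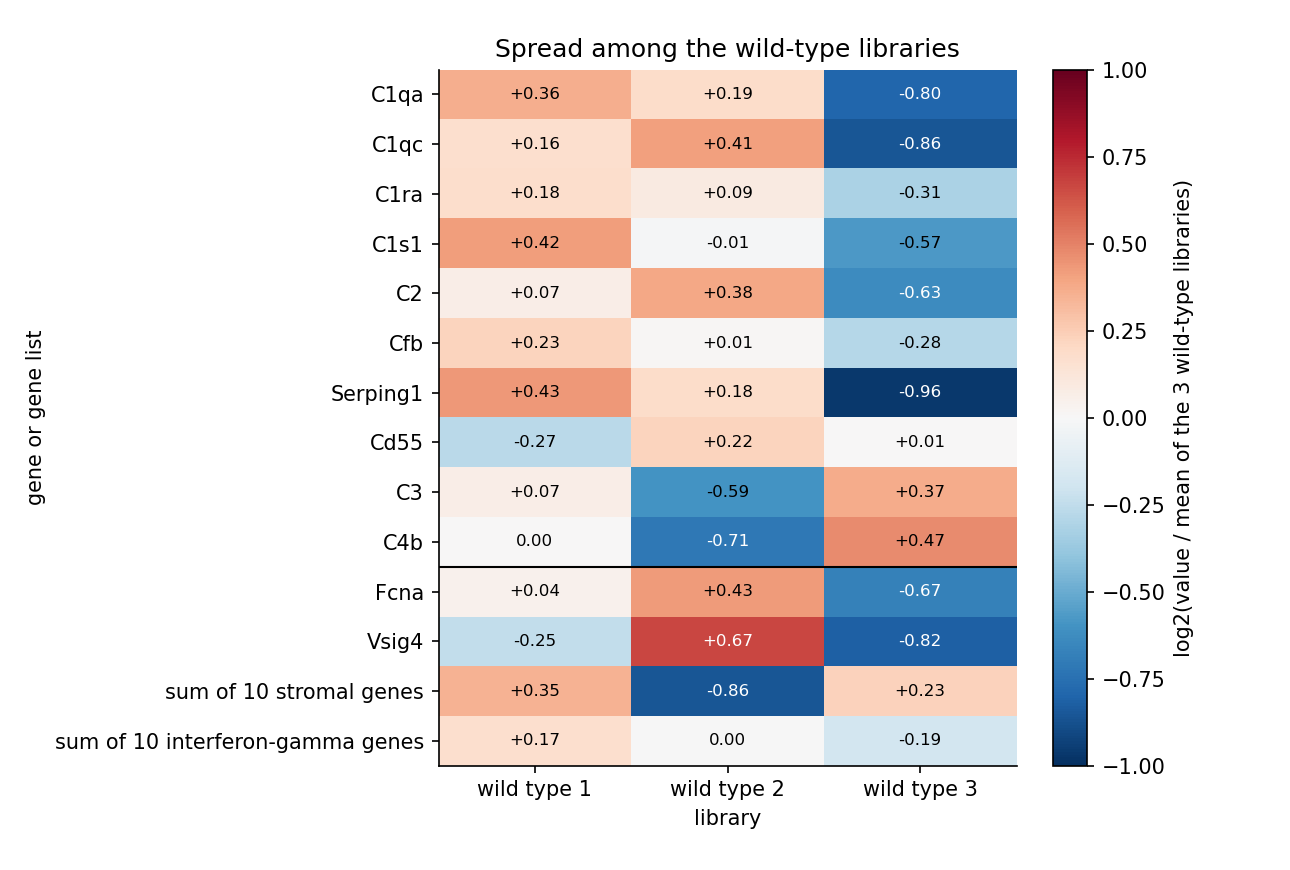
Log2 of each wild-type library's value over the mean of the 3 wild-type libraries for the 10 complement genes, for 2 further complement genes (Fcna, Vsig4) and for the summed counts of the listed stromal and interferon-gamma genes. Replicate 3 is blue (below the mean) in 7 complement genes, in Fcna and in Vsig4, and red (above it) in C3 and C4b. C3, C4b and the stromal sum are lowest in replicate 2. Within that sum Dcn, Thy1 and Lum were lowest in replicate 3 instead, so the sum does not stand for every stromal gene.

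The wider complement system was taken as 55 genes of the classical, lectin, alternative and terminal pathways, regulators and receptors. Of the 45 that are not members, 2 are listed, Fcna and Vsig4, both lower, and 1 of the 2, Vsig4, is called. Fcna encodes ficolin A, a recognition protein of the lectin pathway, and had 1336, 1747 and 814 normalised counts in wild type and 615, 489 and 794 in Senp8+/-. Vsig4, a macrophage receptor for C3 fragments, had 309.98, 586 and 209 in wild type and 120.4, 140.5 and 144 in Senp8+/-. Both had their lowest wild-type value in replicate 3, as C1qa and C1qc did. Neither overlapped between genotypes, as held for 89.4% of the listed genes. For Fcna the gap was slight, 814 in wild-type replicate 3 against 794 in Senp8+/- replicate 3, and the authors' adjusted p was 0.0859. None of the 7 terminal pathway genes is listed. The other 43 genes are not listed, and whether they differed by less, were too low to test or stayed outside the files used here cannot be told apart.

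Genes of other groups are listed beside the complement genes. The list was selected on this contrast, and 569 of its 714 genes were lower. That the listed markers differ was therefore fixed, their values are descriptions, and nothing is known here of the unlisted markers. Fibroblasts also express C1ra, C1s1, C3, C4b and Serping1, and 10 of 17 stromal markers are listed, all lower, 3 of them called. Called lower genes made up 33.9% of the list. Of the 10 markers 5 did not overlap between genotypes, beside 89.4% of the list. The summed normalised counts of the 10 markers were 432 to 778 in Senp8+/- and 898 to 2074 in wild type. Col1a2 (154 ± 65.2 and 387 ± 206), Col3a1 (82.3 ± 20.9 and 299 ± 192) and Dcn (116 ± 27.0 and 257 ± 128) led. Of these Col3a1 is called, while Col1a2 and Dcn are not (authors' adjusted p of 0.170 and 0.189). Among these markers only Lum was at 0 in a library, Senp8+/- replicate 3. The part of such cells in the complement differences was not tested.

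Of 14 interferon-gamma response genes 10 are listed, all lower and all called, with sums of 5769 to 9217 in Senp8+/- and 19571 to 24999.5 in wild type. Called lower genes made up 33.9% of the list, which was selected on this contrast. Gbp2, Irf1 and Tap1 led this list, and Irf1, a transcription factor that acts on many such genes, had 4082 ± 419.99 normalised counts in wild type and 1655 ± 476 in Senp8+/-. Of 8 dendritic cell markers Ccl22 and Clec9a are listed, with sums of 177 to 276 and 545 to 786. The 3 of 11 neutrophil markers that are listed, Csf3r, Prtn3 and Retnlg, summed to 358 to 561 and 1187 to 1566, and Retnlg was at 0 in the Senp8+/- libraries. For T and NK cells 6 of 11 markers are listed, with sums of 19.6 to 21.4 and 137 to 198, led by Il2rb, Gzmb and Gzma. Gzma and Ncr1 were at 0 in the 3 Senp8+/- libraries and Prf1 in 1 of them. Of 5 endothelial markers Stab2 and Pecam1 are listed (10.7 to 14.4 and 30.6 to 60.3, Pecam1 at 0 in Senp8+/- replicate 3), and of 5 B cell markers Cd79b alone (10.7 to 12.4 and 25.3 to 46.5). Csf3r, Ccl22 and Pecam1 are also expressed by other myeloid cells. What such cells contributed to the complement differences was not tested either.

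The listed genes whose profile was most like that of the members were sought among 200 named genes with a mean of at least 100 normalised counts, by Pearson's r over the 6 libraries with the mean standardised log2 profile of each group of members. For the classical genes these were Glipr2 (r = 0.999), H2-Ab1 (0.995) and Cxcl9 (0.995). For the alternative pathway they were Ccl5 (0.998), Cd74 (0.989) and H2-Q4 (0.989), and for the regulators Aoah (0.993), Fpr2 (0.993) and Arg1 (0.993). Genes selected for a difference between 2 genotypes share that difference, so such values of r are a description only.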

How the data were processed

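The authors deposited 1 table with a signal per gene and library, namely reads scaled by a size factor for each library, called normalised counts here. HISAT2 2.0.5 and featureCounts 1.5.0-p3 are named in the submitters' processing notes, while counting settings, genome build, annotation, strandedness and test tool remain not given in the sources used here. The authors' own log2 fold change of Senp8+/- against wild type, p-value and adjusted p-value were copied from this deposited table. The size factors were 0.933 to 1.14, and 100% of values were whole multiples of a library's step (tolerance 1e-06 of a read), so reads were recovered. They summed to 205957 to 491156 per library over the 714 listed genes; total depth is unknown here, and precision rests on the reads of each gene.

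Groups came from the sample titles. The 10 genes, the gene lists and the tests were chosen with earlier results of these data known. The genes named are the members, other listed complement genes, the 3 most abundant listed genes of each marker list and the 3 most similar genes per group of members; others were chosen after their values were seen. Means, SDs and folds were computed from normalised counts. As alternatives, limma 3.58.1 on log2(value + 1), edgeR 4.0.16 (quasi-likelihood) and DESeq2 1.42.0 on recovered reads with the deposited size factors (R 4.3.3) were fitted to all 714 genes, with Benjamini-Hochberg adjustment over 14694 genes, each gene outside the list being assumed to have the larger p. The fits were tested on simulated data. Further alternatives were pseudocounts of 0.5 and 5, rows with a mean of at least 10, rescaled libraries, the replicate number as a block and each library left out. No columns of other samples were present (0).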

Additional observations from a re-analysis of the deposited data

How the results depend on the processing

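The means of all 10 genes stayed lower in Senp8+/- with any 1 library left out and with the libraries rescaled to equal medians over the listed genes, which raised log2 fold changes by a median of 1.01. This rescaling takes a list in which most genes are lower as balanced. Under it the log2 fold changes of C1qa and C1qc came to -0.05 and -0.04 (0.05 for C1qc in limma), and 5 of the 10 genes did not overlap between genotypes in place of 8. With the deposited scaling 89.4% of the listed genes did not overlap, and this share was not computed after the rescaling. On rescaled libraries limma called 1 of the 10 (C3). Over the list it called 35 lower and 125 higher genes, against 149 and 27 with the deposited scaling. The number of genes past an adjusted p of 0.05, 8 in the authors' deposited table, was 5 by limma, which called 176 of the 714 listed genes, and 5 with a pseudocount of 0.5 (154 of the 714). It was 6 with a pseudocount of 5 (179 of the 714) and 6 over rows with a mean of at least 10 (152 of 545). edgeR gave 8 and DESeq2 7, with 186 and 235 calls over the 714 genes. With a library left out, limma gave 0 of the 10 (without wild-type replicate 1, 11 of the 714 called) to 8 (without wild-type replicate 3, 181 of the 714 called, C1qa and C1qc now included and C2 and Cd55 not). It gave 5 without Senp8+/- replicate 1 (100 of the 714), 1 without Senp8+/- replicate 2 (37 of the 714) and 3 without Senp8+/- replicate 3 (87 of the 714). Without wild-type replicate 2 it gave 4 (112 of the 714). Fewer samples enter these fits. Ranks in the adjustment of these alternatives cover the listed genes only, which can raise their adjusted p-values. The cause of the other differences was not tested. Of 130 alternative log2 fold changes of single genes, 120 moved by less than the spread between replicates, 9 moved further under the rescaling and 1, that of C2 without Senp8+/- replicate 1, to -3.56. Many of the 130 had little room to move. The replicate block leaves the limma estimates unchanged, and edgeR and DESeq2 used the same reads and size factors. The limma fit on rescaled libraries is not among the 130. With the replicate block limma called 6 of the 10 and 174 of the 714, C2 being the sixth. Libraries of the same number deviated together with r of 0.01, 0.04 and -0.24 over genes, so the numbers were not taken as pairs, and 1 of the 6 libraries correlated best with its own number. Depth limits the genes with few Senp8+/- reads per library, such as C2 (1 to 10), Cd55 (10 to 24) and Cfb (11 to 23).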
